A study of Mus musculus with 29 samples.

Results

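Expression was examined for 9 genes of cellular fat storage, chosen by name, of the 38124 genes listed by Ensembl identifier in the deposited tables: Cidea, Cideb, Cidec, Plin4, Pparg, Mogat1, Cd36, Osbpl3 and Clstn3. All 9 were found. They were chosen with earlier results of these libraries known, so their differences between restricted and control livers are given as a description, without a test. RNA was sequenced from the livers and hindlimb muscles of 16 mice, all male and of the inbred C57BL/6 strain, bought at 14 weeks of age. From 4 months of age, 3 groups were calorie-restricted to 60% of what they would eat freely (8.6 kcal per day), on diets whose fat was soybean oil, fish oil or lard. Control mice received 95% (13.6 kcal per day), so all 4 groups ate less than they would have freely. Liver was represented by 4 soy, 4 fish, 4 lard and 3 control libraries, and muscle by 3 soy, 3 fish, 4 lard and 4 control libraries. Each library came from 1 animal, and mice are named here by the number in their label. The RNA is from whole tissue, in which fewer cells of a type and less RNA per cell cannot be told apart.

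Fat that a cell does not burn at once is esterified to triglyceride and kept in lipid droplets, whose surface carries CIDE and perilipin proteins. PPARgamma, the product of Pparg, is a ligand-activated nuclear receptor that drives this programme in adipocytes. It pairs with a retinoid X receptor and binds direct repeats of a short half-site spaced by a single base. In the liver it is normally far less active than PPARalpha, and in mice with fatty liver it is known to raise genes such as Cidea, Cidec, Mogat1 and Cd36. Cidea and Cidec sit where droplets touch and promote their fusion into larger ones, while Cideb serves the loading of lipid onto lipoproteins in hepatocytes. Plin4 coats droplets, Mogat1 makes diacylglycerol from monoacylglycerol, and Cd36 takes up fatty acids. Osbpl3 encodes a lipid transfer protein of membrane contact sites. Clstn3 encodes calsyntenin 3, a synaptic adhesion protein, and its locus also gives rise to an adipocyte form that starts inside the gene.

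Promoters of the members were searched for the repeat that PPARgamma recognises, since the genes are grouped here by their link to it. The motif AGGTCANAGGTCA was compared, on both strands, with the 250 bases before each of 12 start sites that RefSeq (GRCm38.p6) gives for 8 members; Cidea is only named. The nearest matches were those of Mogat1 and Cd36, with 2 mismatches each, and of Cidec, with 3. They are printed on the gene's strand with the matching 13 bases in capitals.
Cidec (chr6:113435761-113436010, minus strand): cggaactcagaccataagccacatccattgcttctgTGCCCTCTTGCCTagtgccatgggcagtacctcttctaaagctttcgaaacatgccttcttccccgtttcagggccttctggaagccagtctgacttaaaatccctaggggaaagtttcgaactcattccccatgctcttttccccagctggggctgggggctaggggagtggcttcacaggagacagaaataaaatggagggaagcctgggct
Mogat1 (chr1:78510810-78511059, plus strand): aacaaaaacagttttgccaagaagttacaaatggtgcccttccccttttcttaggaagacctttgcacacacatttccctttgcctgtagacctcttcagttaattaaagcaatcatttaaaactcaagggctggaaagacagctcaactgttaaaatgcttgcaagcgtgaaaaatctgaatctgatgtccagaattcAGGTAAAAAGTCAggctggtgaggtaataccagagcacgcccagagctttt
Cd36 (chr5:17835897-17836146, minus strand): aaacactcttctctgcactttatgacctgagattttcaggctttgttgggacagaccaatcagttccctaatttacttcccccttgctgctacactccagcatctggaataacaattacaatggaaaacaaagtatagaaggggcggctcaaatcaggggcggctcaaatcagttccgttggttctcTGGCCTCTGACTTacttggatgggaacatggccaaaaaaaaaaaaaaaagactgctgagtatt
A match with at most 2 mismatches was present in 3.24% of the 32851 promoters of the table, and one with at most 3 in 21.3%. The Mogat1 match, on the gene's strand, lay 51 to 39 bases before its RefSeq start. The Cd36 match, on the opposite strand, lay 63 to 51 bases before its RefSeq start, and the Cidec match, also on the opposite strand, 214 to 202 bases. Those of Mogat1 and Cd36 fall inside the deposited gene regions (chr1:78510991-78538173 and chr5:17781690-17888959). They are therefore not upstream of the whole region whose reads were counted. At the other start sites the best match had 4 or 5 mismatches, and 74.5% of all promoters hold one with at most 4. These are matches of letters and no measurement of binding.

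Depth was 11315231 to 27106865 exon reads per library. Levels are given as CPM, exon reads of the gene per 1e+06 exon reads of the library, and are compared between genes as RPKM, the deposited values scaled to exon length as well as depth. The 6 hepatocyte markers summed to 98615 to 143462 CPM in restricted livers and 85163 to 99539 CPM in control livers, and to 531 CPM or less in every muscle. Their part in the lower levels of members in restricted livers was not tested. The 6 adipocyte markers summed to 6.32 to 28.8 CPM in restricted livers and 6.52 to 8.46 CPM in control livers, where Lep and Retn were at 0. The highest value was that of fish liver 1123, which also had 380 CPM of Acta1, the actin of skeletal muscle, against 13.8 to 39.3 CPM in the other livers. Soy livers 1073 and 1159 and control muscles 1071 and 1120 stood apart from their groups in earlier results, and each tested result was repeated without them. Neutrophil markers summed to 251 CPM in control muscle 1071 and 1066 CPM in control muscle 1120, against at most 2.46 CPM in the other muscles. Erythroid markers summed to 1969 and 7600 CPM in those 2 muscles, against at most 1081 CPM in the others. The part of blood cells in the muscle values was not tested.

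In the control livers, Cideb led the members by mean RPKM (207 ± 8.41, SD, n = 3), with Cd36 next (56.3 ± 15.4). Cidec (9.29 ± 4.11), Plin4 (7.13 ± 0.988) and Pparg (7.09 ± 0.383) followed at levels that did not differ beyond their spread. Clstn3 (4.90 ± 0.626), Osbpl3 (3.92 ± 2.30), Mogat1 (2.66 ± 0.843) and Cidea (2.37 ± 1.66) were lowest, again with overlapping spreads. In the restricted livers Cideb (180 ± 23.7, n = 12) and Cd36 (37.4 ± 11.6) still led by mean RPKM, and Cidea was last at 0.0795 ± 0.0972.

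Part of the group was lower in restricted than in control livers, and the rest lay near control. Cidea, Cidec and Mogat1 were lower in all 12 restricted livers than in any of the 3 control livers; this held for 241 of the 12788 genes tested in liver (1.88%). Osbpl3 and Clstn3 were below all controls in the soy and lard livers and not in all fish livers. The members whose libraries all lay below control numbered 6 in soy livers (11.3% of all genes), 4 in fish livers (5.19%; Cidea, Cideb, Cidec and Mogat1) and 8 in lard livers (12.7%; all but Plin4), and none lay above. Because the choice of members used such contrasts, nothing is read from these counts.

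**Figure D1:**
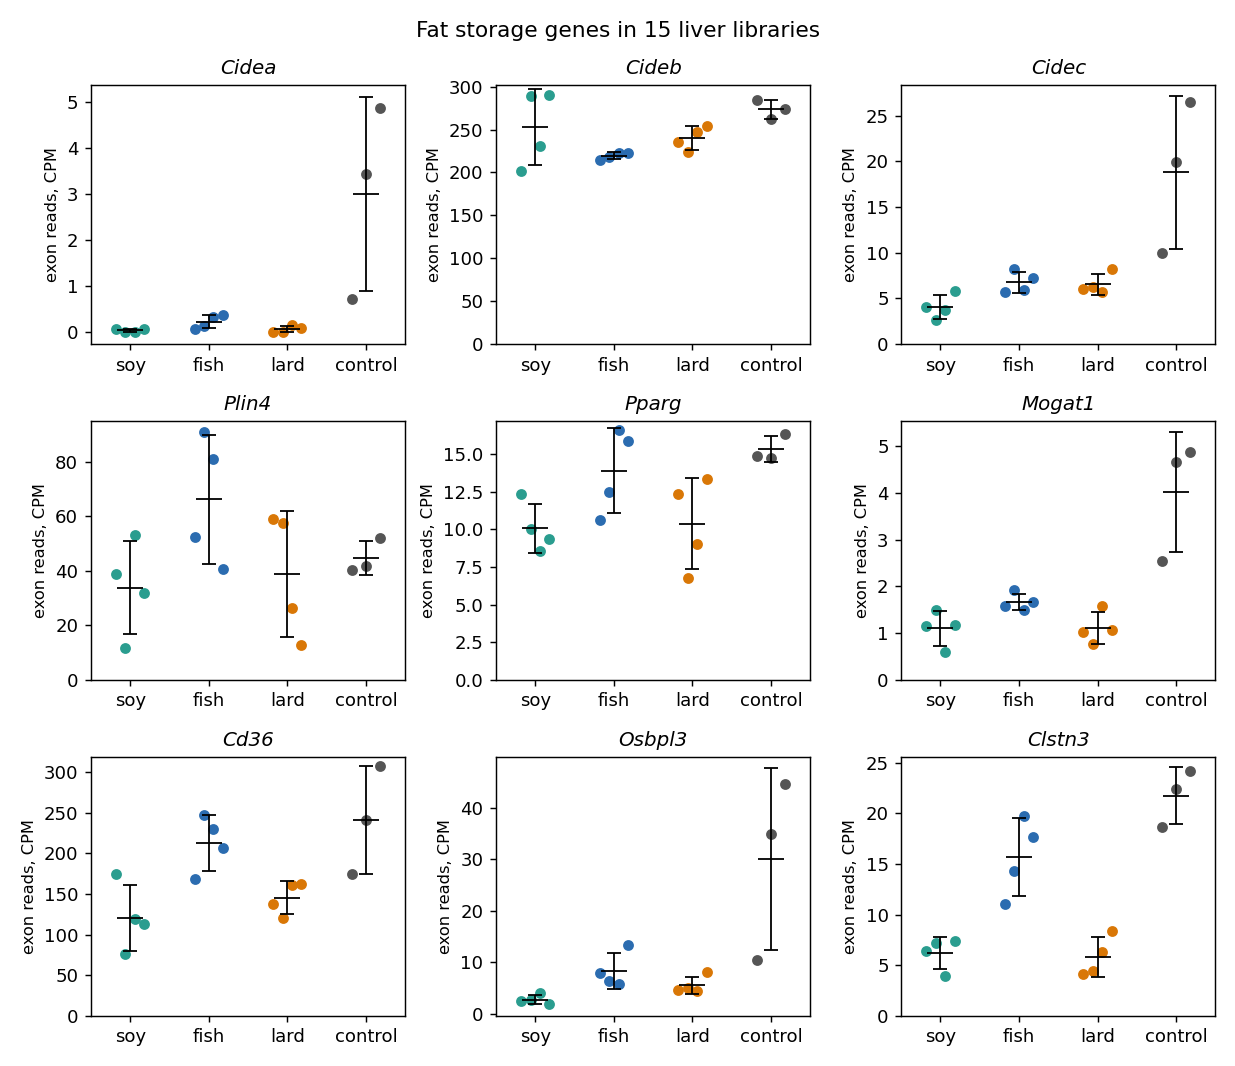
CPM of each member in every liver library (y axis, linear) by diet (x axis); points are libraries, and bars give the mean and SD over 4 soy, 4 fish, 4 lard and 3 control livers. Cidea, Cidec and Mogat1 of restricted livers all lie below the lowest control liver, and Clstn3 of fish livers lies above all soy and lard livers.

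Pparg, the regulator, was only slightly lower. It had 12.4, 9.997, 8.58 and 9.34 CPM in soy livers, 10.6, 12.5, 16.6 and 15.9 CPM in fish livers and 12.4, 6.77, 9.0 and 13.3 CPM in lard livers, against 14.9, 14.8 and 16.3 CPM in control livers. Soy and lard livers were all below the controls, and fish livers overlapped them. The log2 fold change over all restricted livers was -0.37 ± 0.18 (SE, edgeR). The list of 16 partners and regulators of PPARgamma and of the related receptors, fixed with earlier results known, had 0 members past an adjusted p of 0.05 in this contrast, beside 1.08% of all genes (138 of 12788, edgeR). Its median log2 fold change was -0.10 beside 0.01 over all genes, and 0 of 16 is near the share of all genes.

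Cd36 was likewise lower in soy and lard livers, and near control in fish livers. Its values were 174, 75.9, 119 and 114 CPM in soy livers, 168, 247, 230 and 206 CPM in fish livers and 138, 121, 161 and 163 CPM in lard livers, against 174, 241 and 308 CPM in control livers. Lard livers did not overlap the controls. Fish livers ran from 168 CPM, just below the lowest control, to 247 CPM, inside the control range. The log2 fold change was -0.58 ± 0.19 over all restricted livers, -0.87 ± 0.24 in soy, -0.23 ± 0.24 in fish and -0.65 ± 0.24 in lard livers.

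Mogat1, the enzyme of the monoacylglycerol route, was low throughout. It had 1.15, 1.505, 0.597 and 1.18 CPM in soy livers, 1.59, 1.92, 1.502 and 1.67 CPM in fish livers and 1.03, 0.760, 1.58 and 1.06 CPM in lard livers, against 2.55, 4.67 and 4.87 CPM in control livers. No restricted liver reached the lowest control. The log2 fold change was -1.60 ± 0.25 over all restricted livers. The counts behind it were 8 to 32 exon reads in restricted livers and 36, 68 and 76 in control livers. Of its exon bases 12.8% are shared with BC035947 on the opposite strand, which had a median of 4 reads per library. The general route of triglyceride synthesis, a list of 12 acyltransferases and lipins of which 11 were tested, had 0 genes past the threshold in this contrast, also near the share of all genes, and a median log2 fold change of 0.10. In lard against control livers 1 gene of this list passed, Lpin1, a phosphatidate phosphatase, where 0.18% of all genes were called higher. Lpin1 had 1353, 1232, 997 and 429 CPM in lard livers, against 183, 151 and 339 CPM in control livers, with a log2 fold change of 2.25 ± 0.39 (adjusted p = 0.021, edgeR). The call was lost without lard liver 1100 (adjusted p = 0.083) or 1101 (0.066) and without control liver 1095 (0.090) or 1120 (0.097).

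Cidea was close to absent from restricted livers. It had 1, 0, 0 and 1 exon reads in soy livers, 1, 2, 5 and 7 in fish livers and 0, 0, 2 and 1 in lard livers, against 10, 50 and 76 in control livers. As CPM the control livers held 0.709, 3.43 and 4.87 and the restricted livers at most 0.365. The gene passed the filter on low counts through the control livers, and 1 of those, of mouse 1095, lay far below the other 2. Over pooled libraries the ratio to control was 0.00944 in soy livers (2 against 136 reads, exact 95% interval 0.00113 to 0.0347), 0.0730 in fish livers (15 against 136 reads, 0.0398 to 0.125) and 0.0159 in lard livers (3 against 136 reads, 0.00323 to 0.0473). These intervals cover counting error only.

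Cidec was lower in restricted livers, with a wide spread among controls. It had 4.06, 2.63, 3.73 and 5.86 CPM in soy livers, 5.73, 8.21, 5.94 and 7.19 CPM in fish livers and 6.02, 6.22, 5.70 and 8.22 CPM in lard livers, against 9.92, 19.9 and 26.5 CPM in control livers. The lowest control, again mouse 1095, was near the highest restricted livers. The log2 fold change was -1.69 ± 0.24 over all restricted livers, -2.07 ± 0.31 in soy, -1.53 ± 0.30 in fish and -1.46 ± 0.31 in lard livers.

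Reads within the Cidec gene but outside its annotated exons did not follow its exon reads. They amounted to 3.33 to 6.87 CPM in soy livers, 7.19 to 9.08 CPM in fish livers and 6.36 to 7.87 CPM in lard livers, against 5.49 to 9.57 CPM in control livers. Fish and lard livers lay inside the control range. Soy livers 1073 (3.33 CPM) and 1159 (3.74 CPM) lay below it, 1141 (5.37 CPM) just below it and 1065 (6.87 CPM) inside it. Over all genes, 5.47% and 5.41% of gene reads lay outside exons in livers 1073 and 1159, against 7.90% to 8.92% in the other livers. The part of this library-wide difference in the low Cidec values was not tested. As a share of the reads of Cidec, those outside exons made up 39.0% to 62.9% in restricted livers and 20.8% to 49.1% in control livers. In muscle the share was 4.99% to 13.2% in restricted mice and 4.78% to 6.61% in control mice. No other gene listed in the tables overlaps the Cidec region (chr6:113424634-113435760, minus strand, GRCm38).

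Plin4 and Cideb, the other droplet proteins among the members, did not move as a group. Plin4 had 38.9, 11.8, 53.1 and 31.7 CPM in soy livers, 52.4, 91.1, 80.9 and 40.6 CPM in fish livers and 59.1, 57.6, 26.5 and 12.7 CPM in lard livers, against 40.3, 41.9 and 52.0 CPM in control livers. Every diet overlapped the controls, and restricted livers spread over a wider range than control livers. The highest value was that of fish liver 1123, the library with the raised skeletal muscle markers; the part of muscle RNA in it was not tested. Cideb ranged from 202 to 290 CPM in restricted livers and from 263 to 285 CPM in control livers, with a log2 fold change of -0.13 ± 0.13. Only 41.3% to 50.3% of its exon reads in liver were unique, and 76.3% of its exon bases are shared with Nop9 on the opposite strand, which had 15.1 to 23.4 CPM in liver; without a stated strand setting, reads of the pair cannot be told apart. The list of 16 other droplet proteins and lipases, of which 15 were tested in liver, had 0 genes past the threshold, again near the share of all genes, and a median log2 fold change of -0.30.

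Osbpl3 showed the next largest difference after Cidea. It had 2.43, 2.74, 3.96 and 1.99 CPM in soy livers, 8.02, 6.29, 5.81 and 13.3 CPM in fish livers and 4.70, 5.05, 4.53 and 8.04 CPM in lard livers, against 10.4, 35.0 and 44.6 CPM in control livers. Fish liver 1125 exceeded control liver 1095, and all other restricted livers were below the controls. The log2 fold change was -2.53 ± 0.31 over all restricted livers, -3.33 ± 0.44 in soy, -1.89 ± 0.41 in fish and -2.38 ± 0.42 in lard livers.

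**Figure D2:**
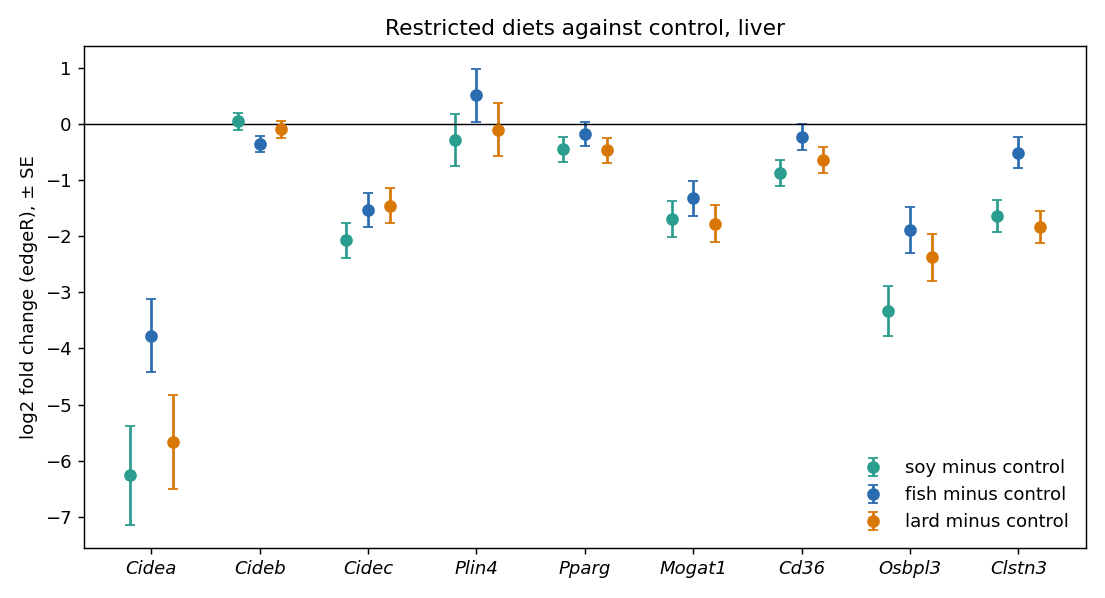
Log2 fold change of each member (y axis) in soy, fish and lard livers minus control livers, with its SE from one edgeR fit of 15 liver libraries. All 3 comparisons share the 3 control libraries; the Cidea values rest on 2, 15 and 3 reads in soy, fish and lard livers.

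Control liver 1095 had the lowest control value of Cidea, Cidec, Mogat1, Cd36, Osbpl3, Plin4 and Clstn3 by CPM. Without it, the log2 fold change over all restricted livers was -5.72 for Cidea, -2.02 for Cidec and -2.96 for Osbpl3, and without control liver 1121 it was -4.70, -1.35 and -2.13. Of the 6 adipocyte markers, Adipoq was near 0 in the control livers (0 to 0.0686 CPM), while Fabp4 had 5.63 to 7.63 CPM there. Among the 4 brown adipocyte markers, Ucp1 was at 0 in all control livers, while Elovl3, a fatty acid elongase that liver also expresses, had 2.24 to 31.6 CPM in restricted livers and 41.7 to 93.7 CPM in control livers.

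Genes most like Cidea and Cidec were sought over the 15 livers among the 11769 genes averaging 1 CPM or more, by Pearson correlation of log2 CPM; the points share the 4 diet groups, so the values are descriptive. For Cidea the closest other genes were Paqr7 (r = 0.95), Atp9a (0.91), Tlr12 (0.90), Ypel2 (0.90) and Mup17 (0.90). Paqr7 had 43.1 to 54.7 CPM in soy, 58.2 to 72.6 in fish and 36.4 to 55.8 in lard livers, against 83.2 to 123 CPM in control livers. Mup17 belongs to a family of near-identical genes, whose reads may be split between copies. For Cidec they were Rarres1 (0.90), Cyp2j6 (0.88), Themis (0.87), Slc10a2 (0.87) and Cryz (0.86). Rarres1 had 5.15 to 11.2 CPM in soy, 14.1 to 21.9 in fish and 11.5 to 26.8 in lard livers, against 44.6 to 79.4 CPM in control livers. Among the members, Mogat1 (0.92), Cidec (0.90) and Osbpl3 (0.89) were nearest to Cidea, followed by Clstn3 (0.83), Cd36 (0.75) and Pparg (0.67), with Cideb (0.35) and Plin4 (0.17) last.

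Clstn3 of fish livers lay apart from the other 2 restricted diets. It had 6.35, 7.20, 3.96 and 7.41 CPM in soy livers, 11.01, 14.3, 19.8 and 17.7 CPM in fish livers and 4.14, 4.42, 6.32 and 8.40 CPM in lard livers, against 18.6, 22.4 and 24.2 CPM in control livers. All 4 fish livers were above all 8 soy and lard livers, and 1 of them lay within the control range. The order of the means was control, fish, soy and lard, with soy (6.23 ± 1.58) and lard (5.82 ± 1.97) within each other's spread.

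Against lard alone, Clstn3 was higher in fish livers by 1.32 ± 0.27 log2 (adjusted p = 0.063), and against soy alone by 1.13 ± 0.26 (adjusted p = 0.10); both missed the threshold in edgeR's quasi-likelihood test with Benjamini-Hochberg adjustment over 12788 genes. From the mean of lard and soy livers, fish livers differed by 1.22 ± 0.22 log2, and by 1.11 to 1.37 when any 1 library was left out. That comparison was added after these values were seen, so it is a description without a test. Without the soy livers that stood apart, the difference from lard alone was 1.33 (adjusted p = 0.034, edgeR). The genes whose fish livers all lay above all lard and soy livers numbered 513 (4.01%), and Clstn3 was the only member among them.

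Many Clstn3 reads lay outside annotated exons, which limits what its CPM stand for. In liver 21.7% to 39.5% of the gene's reads in restricted mice and 37.0% to 40.6% in control mice fell outside annotated exons, against 5.41% to 8.92% over all genes of a liver library. Of its exon reads in liver 16.3% crossed a junction between exons, beside a median of 33.0% over the genes tested, of which 23.1% had a lower share. Among the members Plin4 was lower still (9.98%), Cidec had 20.2%, and Cd36 was highest with 52.9%. The deposited median coverage of its exons was 0 to 2 reads in every liver, although the gene had 53 to 377 exon reads there. Which part of chr6:124430759-124464794 (minus strand, GRCm38) the reads came from cannot be told from the tables.

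Reads outside the Clstn3 exons were likewise highest in control livers and next in fish livers, with soy and lard livers low and overlapping. They came to 2.39, 2.58, 2.46 and 2.06 CPM in soy livers, 7.19, 7.55, 7.51 and 10.4 CPM in fish livers and 1.69, 2.70, 3.64 and 2.47 CPM in lard livers, against 11.1, 13.2 and 16.5 CPM in control livers. No fish liver overlapped a soy, lard or control liver in this measure. It comes from the same libraries as the exon reads and is given without a test.

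**Figure D3:**
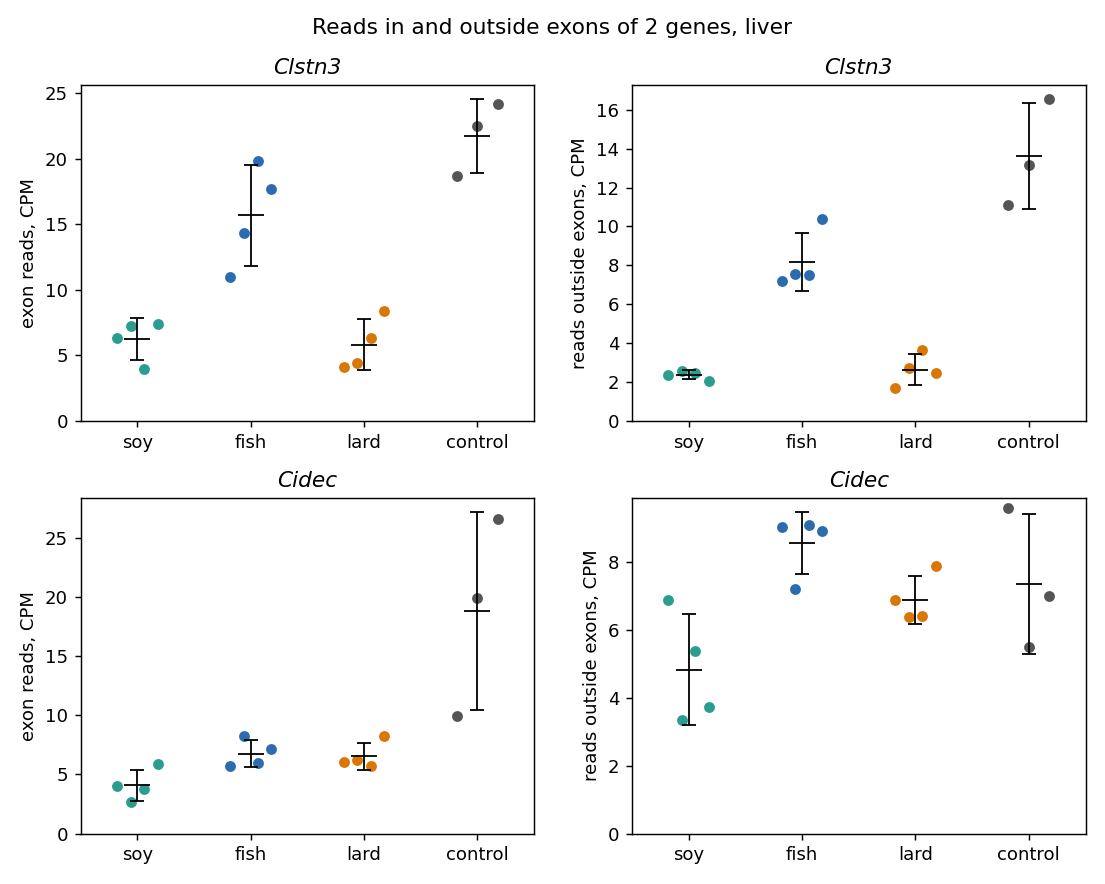
CPM of exon reads (left) and of reads in the gene outside its annotated exons (right) for Clstn3 and Cidec in every liver library, with mean and SD by diet. For Clstn3 both measures put the mean of fish livers between that of control livers and those of soy and lard livers; for Cidec the reads outside exons of fish and lard livers lie within 6.36 to 9.08 CPM, inside the control range of 5.49 to 9.57 CPM.

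No member passed a contrast of 2 fats in liver. Called genes made up 0.203% of those tested for fish against lard, 0.0938% for fish against soy and 0.0% for lard against soy, and 0 of 9 members were among them; for lard against soy 2212 genes had an unadjusted p under 0.05 and the DESeq2 Wald test called 151. Groups of libraries did separate without a call. Osbpl3 of all soy livers lay below all fish livers (9.34% of genes were higher in fish in this way) and below all lard livers (1.96% higher in lard). Cd36 of all fish livers lay above all lard livers (12.6%), and Cideb of all fish livers below them (1.49%). Cd36 differed between fish and lard livers by 0.41 ± 0.22 log2 (adjusted p = 0.56) and between fish and soy livers by 0.64 ± 0.22 (adjusted p = 0.13). Osbpl3 was higher in fish than in soy livers by 1.44 ± 0.42 log2 (adjusted p = 0.11) and in lard than in soy livers by 0.95 ± 0.43 (adjusted p = 0.28). Cideb was lower in fish than in soy livers by -0.41 ± 0.14 log2 (adjusted p = 0.13). All these adjusted p values are from edgeR, and none shows that the diets act alike. Leaving out a single soy liver took some past the threshold: without soy liver 1065, Cd36 (0.84, adjusted p = 0.025) and Cideb (-0.52, 0.019) in fish against soy, and without soy liver 1141, Cideb (-0.48, 0.045) and Osbpl3 (1.60, 0.045). The same removals made the Clstn3 difference from soy pass at 1.10 (0.027) and 0.95 (0.036), and without soy liver 1141 its difference from lard passed at 1.32 (0.032). Without soy liver 1065, fish against soy gave 2092 called genes in all, against 12 with every library. Over all fits that left out 1 library, calls ranged from 0 to 2092 for fish against soy and from 0 to 43 for fish against lard. Nothing particular to the members is read from their passes without soy liver 1065 or without soy liver 1141.

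Among 16 other genes that PPARgamma is known to drive in fat cells, of which 12 were tested in liver, none passed in fish against lard or in fish against soy. In the added comparison of fish livers with the mean of lard and soy livers 2 were called higher, as were 0.211% of all genes (27). That comparison was added after the data were seen, so its calls and adjusted p values are descriptions and no independent test. Lpl, the lipase that frees fatty acids from lipoproteins, had 30.9, 55.8, 46.0 and 38.0 CPM in fish livers, against 12.7 to 21.8 CPM in lard and 10.97 to 25.7 CPM in soy livers. Slc27a1, a fatty acid transporter, had 25.6, 21.1, 26.2 and 28.5 CPM in fish livers, against 6.96 to 12.0 CPM in lard and 6.99 to 15.0 CPM in soy livers. The differences were 1.10 ± 0.22 (adjusted p = 0.0496, edgeR) and 1.22 ± 0.24 log2 (adjusted p = 0.043, edgeR), and they passed in only 2 and 5 of 15 fits that left out 1 library. Both genes are far higher in muscle, where Lpl had at least 321 CPM and Slc27a1 at least 86.8 CPM; without fish liver 1123 the differences were 0.96 (adjusted p = 0.17) and 1.31 (adjusted p = 0.078).

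In hindlimb muscle 7 of the 9 members passed the filter on low counts, and none of them passed the test between restricted and control mice (457 of 13104 genes called, 3.49%) or between fish and lard (0.0% called by edgeR, 541 genes with an unadjusted p under 0.05, 14 called by DESeq2). Cideb had at most 0.481 CPM in restricted and 0.911 CPM in control muscles, and Mogat1 at most 0.740 and 0.402 CPM. By mean RPKM, Cd36 (90.3 ± 14.3 in 10 restricted and 88.3 ± 32.7 in 4 control muscles) and Plin4 (77.0 ± 22.9 and 56.3 ± 31.6) led and overlapped, followed by Cidec (16.6 ± 16.4 and 26.8 ± 17.9) and Pparg (3.10 ± 1.99 and 2.90 ± 0.814). Cidea, which was near 0 in restricted livers, had 0.438 to 2.02 CPM in restricted and 0.781 to 3.54 CPM in control muscles. Plin4 was higher in restricted muscles by 0.43 ± 0.29 log2 (adjusted p = 0.35, edgeR). Without control muscle 1121, whose Plin4 was 636 CPM against 220 to 267 CPM in the other controls, that difference was 0.88 (adjusted p = 0.043, edgeR). The fit without that muscle called 1840 genes in all, against 457 with every library, so the call is not particular to Plin4. Without control muscles 1071 and 1120 the Plin4 difference was 0.05 (adjusted p = 0.97, edgeR).

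Cidec in muscle varied together with Adipoq, a gene of fat cells, within every diet. It ranged from 6.82 to 113 CPM in restricted and from 21.1 to 99.8 CPM in control muscles, with a log2 fold change of -0.77 ± 0.62 (adjusted p = 0.43, edgeR). Adipoq, the adiponectin gene and a defining adipocyte marker, ranged from 7.76 to 138 CPM over the 14 muscles. Both were highest in soy muscle 1073 (113 CPM of Cidec and 138 CPM of Adipoq), next in control muscle 1121 (99.8 and 89.3 CPM), and lowest in soy muscle 1065 (6.82 and 7.76 CPM). The ratio of Cidec to Adipoq stayed between 0.704 and 1.48 while each gene varied 16.6-fold and 17.7-fold. The same 5 muscles had the 5 highest values of both, and 4 of them were among the 5 highest of Pparg, against 3 for Plin4. The 6 adipocyte markers summed to 221 to 1514 CPM in restricted and 380 to 852 CPM in control muscles. Plin1, Lep and Retn were present in every muscle, with at least 3.74, 1.97 and 2.31 CPM. The part of fat tissue left on the muscle in these values was not tested.

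**Figure D4:**
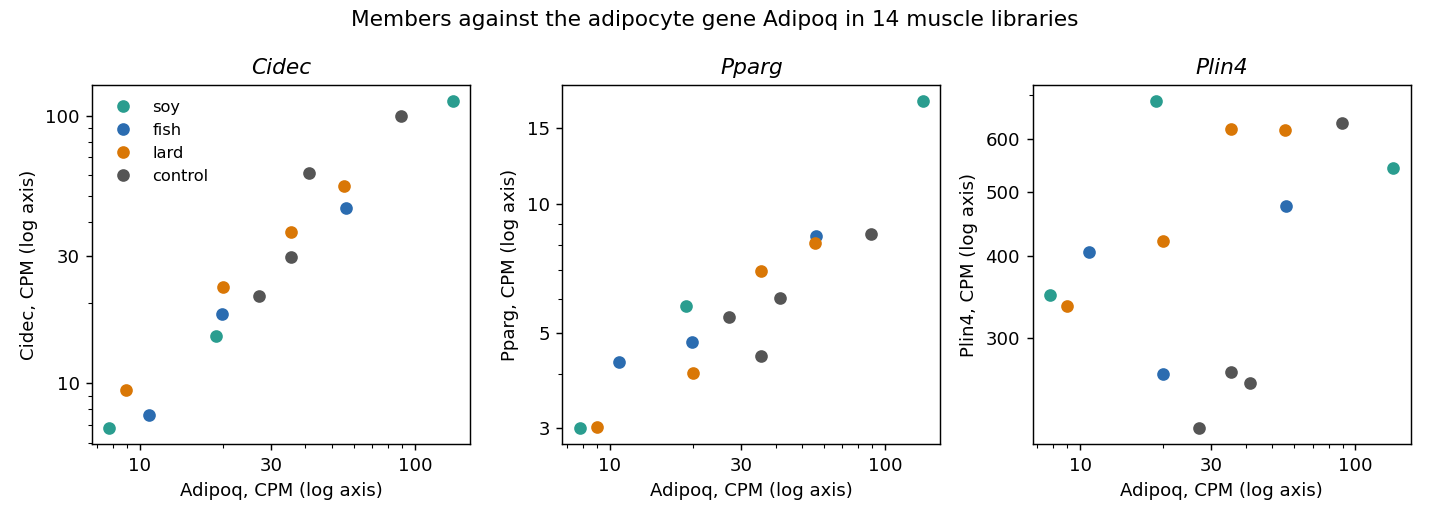
CPM of Cidec, Pparg and Plin4 (y axes, log) against CPM of Adipoq (x axis, log) in the 14 muscle libraries, coloured by diet. Cidec runs along a line over the whole range of 7.76 to 138 CPM of Adipoq in every diet, and Plin4 is scattered between 220 and 685 CPM.

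Control livers were set against control muscles in one fit of all 29 libraries, in which 35.5% of 14150 genes were higher and 38.0% lower in liver. Clstn3 was higher in liver by 4.15 ± 0.38 log2, Osbpl3 by 3.33 ± 0.39 and Pparg by 1.33 ± 0.37 (adjusted p = 0.0025, edgeR). Cideb (9.19 ± 0.31) and Mogat1 (3.63 ± 0.50) were also higher, which is given as a description only. These 2 passed the filter on low counts through liver, with 2 to 14 and 3 to 6 exon reads in control muscles. Plin4 was lower in liver, by -2.94 ± 0.50. Counting Cideb and Mogat1, 5 of 9 members were higher and 1 was lower in liver. Cidec (-1.48 ± 0.69, adjusted p = 0.055), Cd36 (-0.59 ± 0.27, 0.053) and Cidea (0.99 ± 0.56, 0.12) did not pass in edgeR, and leaving out 1 library took each of them past the threshold. Such libraries were control muscle 1120 for Cidec (-1.77, adjusted p = 0.027), control muscle 1071 for Cd36 (-0.81, adjusted p = 0.0054) and control liver 1095 for Cidea (1.48, adjusted p = 0.020). Without control muscles 1071 and 1120, Cd36 was at -0.91 (adjusted p = 0.0020) and Cidea at 1.60 (adjusted p = 0.042). As liver and muscle of 3 control mice came from the same animals, the fit was repeated with the animal as a replicate block, where Cd36 passed at -0.83 (adjusted p = 0.015) and the other members kept their side.

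The effect of restriction was compared between the tissues by its difference, liver minus muscle. It includes the liver contrast that the choice of members used, so it is described without a test. The difference was -5.17 ± 0.77 log2 for Cidea, which had 0 to 7 reads in restricted livers, and -2.66 ± 0.44 for Osbpl3. It was -1.61 ± 0.60 for Mogat1, -1.07 ± 0.44 for Clstn3, -0.92 ± 0.76 for Cidec and -0.63 ± 0.30 for Cd36. Over all genes 0.269% were called lower, from which nothing is read about the members. Osbpl3 had 1.96 to 5.64 CPM in restricted and 2.67 to 3.55 CPM in control muscles. With the animal as a replicate block its difference was -2.50, and without the 4 libraries that stood apart it was -2.57.

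**Figure D5:**
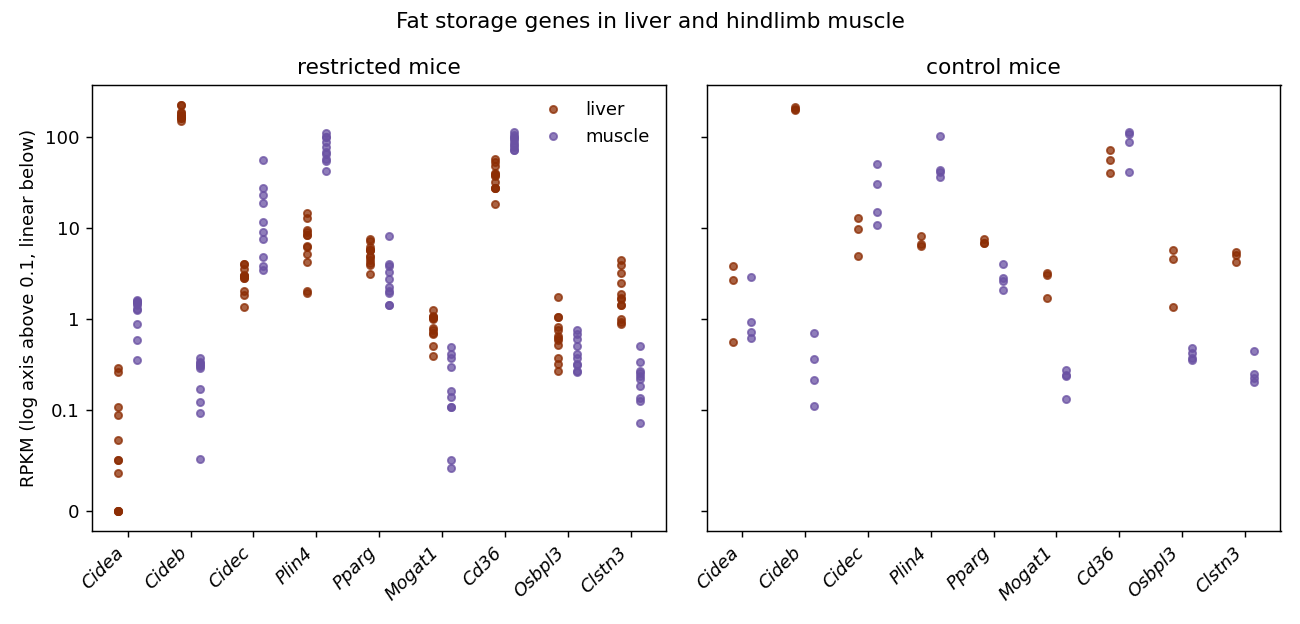
RPKM of each member in every liver and muscle library of restricted mice (left panel) and control mice (right panel), on an axis that is logarithmic above 0.1 and linear below. Cideb, Mogat1 and Clstn3 of every liver lie above every muscle of the same panel except for Mogat1 of restricted mice, and Plin4 of every liver lies below every muscle.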

How the data were processed

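Total exon reads, unique exon reads, reads of the whole gene and junction reads were deposited by the authors as raw counts per gene and library, per the file headers. The RPKM values were deposited by the authors beside them, per the file headers, and so was the median coverage of each gene. The submitters' processing notes name GRCm38 and FastQC; the aligner, the counter, the annotation and the strand setting were not found in any label or header. Per the labels, the authors left out 1 control liver and 1 fish muscle for their clustering and lower RNA integrity.

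Symbols were taken from GENCODE by Ensembl identifier for 36345 of 38124 genes, including all 9 members. CPM were computed from total exon reads. Reads outside exons are gene reads minus exon reads. Tests used edgeR 4.0.16 in R 4.3.3 (TMM, filterByExpr with a minimum count of 10, quasi-likelihood F test, Benjamini-Hochberg adjustment, threshold 0.05), fitted per tissue over its 4 diets and, across tissues, over all 29 libraries. The SE is the absolute log2 fold change over the square root of F. Alternatives used DESeq2 1.42.0 (Wald test, size factors), no filter, unique reads, replicate blocks and left-out libraries. The script was tested on simulated data. Named genes were all members, the 5 genes most like Cidea and Cidec, and at most 3 passing genes per list. Members and lists were chosen with earlier results of these data known. Liver and muscle of the same mouse are paired by animal (13 pairs, r of deviations -0.0717 to 0.128). P-values set a difference against the spread between libraries of a group, each from 1 mouse. In the main fit of all 29 libraries, liver and muscle of the same mouse entered as separate libraries.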

Additional observations from a re-analysis of the deposited data

Results flagged for a closer look

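In groups of 4 libraries, a library was singled out when its gap to the nearest other exceeded Dixon's 95% critical value; chance does this in about 1 group of 20, and 3 of 45 groups were singled out. Cidea was 3.54 CPM in the control muscle of mouse 1120, the muscle with the highest neutrophil and erythroid marker sums. Plin4 was 636 CPM in the control muscle of mouse 1121, against 220 to 267 CPM in the other control muscles. Osbpl3 was 8.04 CPM in the lard liver of mouse 1130, against 4.53 to 5.05 CPM in the other lard livers.

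The effect of restriction, liver minus muscle, was -5.17 log2 for Cidea and -2.66 log2 for Osbpl3. These 2 members were flagged because edgeR gave them an adjusted p under 0.05 for this difference. Both values include the liver contrast with which the members were chosen, so they and the flag are descriptions, and no independent test of the difference was made. For Osbpl3 the value was -2.50 with the animal as a replicate block and -2.57 without the 4 libraries that stood apart.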

How the results depend on the processing

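No printed value of a member changed sign under any alternative that was run. In the comparisons with a test, 445 of 467 member values with 1 library left out and 123 of 136 under other alternatives kept their side of the threshold, and the other 22 and 13 gained it. These counts include Cideb and Mogat1 in control liver against control muscle, which are only described above. In the comparisons described without a test, 654 and 228 values kept their sign. For Lpl, Slc27a1 and Lpin1, which are no members, 27 of 45 values with 1 library left out and 3 of 18 others lost the threshold. DESeq2's Wald test gave no adjusted p for Osbpl3 and Cidec in lard against soy.

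Counts of genes called moved more. With the DESeq2 Wald test they were 339 for restricted against control livers (138 with edgeR), 164 for fish against lard livers (26), 813 for fish against soy (12), 151 for lard against soy (0), 290 for fish against lard and soy (44), 1267 for restricted against control muscles (457), 14 for fish against lard muscles (0) and 444 for the restriction effect, liver minus muscle (93). With library number as a replicate block they were 13 for fish against lard, 4 for fish against soy and 25 for fish against lard and soy livers, and 27 for restricted against control muscles; the numbers do not pair the samples (21 liver pairs, r from -0.158 to 0.155). With the animal as a replicate block, the restriction effect gave 16. Without the libraries that stood apart they were 326 for restricted against control livers, 98 for fish against lard, 0 for fish against soy, 2 for restricted against control muscles and 11 for the restriction effect.

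Leaving out 1 library at a time gave 37 to 175 calls for restricted against control livers, 0 to 43 for fish against lard, 0 to 2092 for fish against soy, 0 to 780 for lard against soy, 4 to 257 for fish against lard and soy, 3 to 1840 for restricted against control muscles, 0 to 31 for fish against lard muscles, 9963 to 10548 for control liver against control muscle and 9 to 466 for the restriction effect. The causes were not tested. The 0 to 7 Cidea reads of restricted livers limit its fold changes.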
